A study of Mus musculus with 6 samples.

Results

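The genes described here are the classical histone deacetylases Hdac1, Hdac2, Hdac3, Hdac4, Hdac5, Hdac6, Hdac7, Hdac8, Hdac10 and Hdac11, the family whose enzymes panobinostat inhibits. They were chosen by name, as the rows whose Entrez gene ID maps to one of these symbols, and all 10 were found among the 27179 genes of the count table. Messenger RNA was sequenced from the mouse leukemia labelled A/E9a;NRASG12D, driven by a shortened RUNX1-RUNX1T1 (AML1-ETO) protein together with mutant NRAS. All 6 libraries came from this 1 leukemia in C57BL/6 mice, 3 libraries after 3 days of vehicle and 3 after 3 days of panobinostat, and the cells were sorted from spleen as GFP-positive and viable. The labels give neither the age nor the number of the mice, nor whether each library is its own animal; p-values therefore reflect library-to-library spread that could be technical.

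Histone deacetylases remove acetyl groups from lysines of histones and of other proteins. Class I enzymes (Hdac1, Hdac2, Hdac3 and Hdac8) are mostly nuclear, and all but Hdac8 work inside corepressor complexes. Class IIa enzymes (Hdac4, Hdac5 and Hdac7) have little catalytic activity of their own, bind MEF2 transcription factors and move to the cytoplasm when kinases phosphorylate them, whereas the class IIb enzyme Hdac6 deacetylates tubulin in the cytoplasm and its relative Hdac10 acts on polyamines. Hdac11 is the sole class IV enzyme. Panobinostat is a hydroxamate that blocks the zinc-dependent catalytic site shared by these classes, and the sirtuins, which use NAD, are not its targets. The values below are transcript levels, and enzyme protein and activity were not measured in these libraries.

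Library totals ran from 25794869 to 32571961 counts, so that 1 count was worth 0.0307 to 0.0388 CPM, the count scaled to a common library size. Levels are CPM scaled by TMM factors, which adjust for RNA composition and which the worth of 1 count just given leaves out. Changes are log2 fold changes of panobinostat over vehicle. A gene was called when the adjusted p of edgeR's quasi-likelihood test was under 0.05. Libraries carry the leading number of their count column, vehicle 2, 3 and 4 and panobinostat 1, 5 and 6. The names hold 2 further numbers that the labels do not explain: vehicle libraries 2 and 3 share both, no middle number occurs in both groups, and panobinostat library 1 alone ends in 1 where the other 5 end in 3. Whatever the middle number stands for cannot be told apart from the treatment. The leukemia markers fixed for these cells (8 genes, including Kit, Gata1, Gata2 and Car2) summed to 4555 to 5357 CPM in vehicle and 5940 to 6676 CPM with panobinostat. The sum hides opposite moves, and edgeR called 2 of the 8 genes, Gata1 and Gata2, both higher. Of all tested genes 21.0% were called and 11.3% were called higher. In panobinostat library 1 Cpa3, Ms4a2, Hdc and Kit (13.7, 205, 912 and 164 CPM) lay below every vehicle library. Car2 (3996 CPM), Gata1, Gata2 and Klf1 lay above every vehicle library there. T cell markers summed to at most 6.42 CPM and B cell markers to at most 20.4 CPM in any library. Panobinostat library 1 stood apart in its erythroblast markers, at 26160 CPM against 11960 and 13400 CPM in the other treated libraries and 2878 to 3482 CPM in vehicle.

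All 10 members passed the filter on low counts. Hdac7 was higher with panobinostat, Hdac2 and Hdac6 were lower, and the other 7 members did not pass the test. These 3 calls in 10 genes stand beside 21.0% of all 12916 tested genes called, 11.3% higher and 9.72% lower. Treated and vehicle values did not overlap in 4 members, namely Hdac2, Hdac3, Hdac6 and Hdac7, beside 44.6% of all tested genes, so neither share of the family is far from its background. The median log2 fold change was -0.05 over the members and 0.01 over all tested genes, and the members' range was -0.60 to 0.72. Of all calls 53.8% were higher with TMM scaling and 35.5% with scaling by library size alone, which moved the median of all genes from 0.01 to -0.095. In a bulk sample fewer cells of a type and less RNA per cell cannot be told apart.

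**Figure D1:**
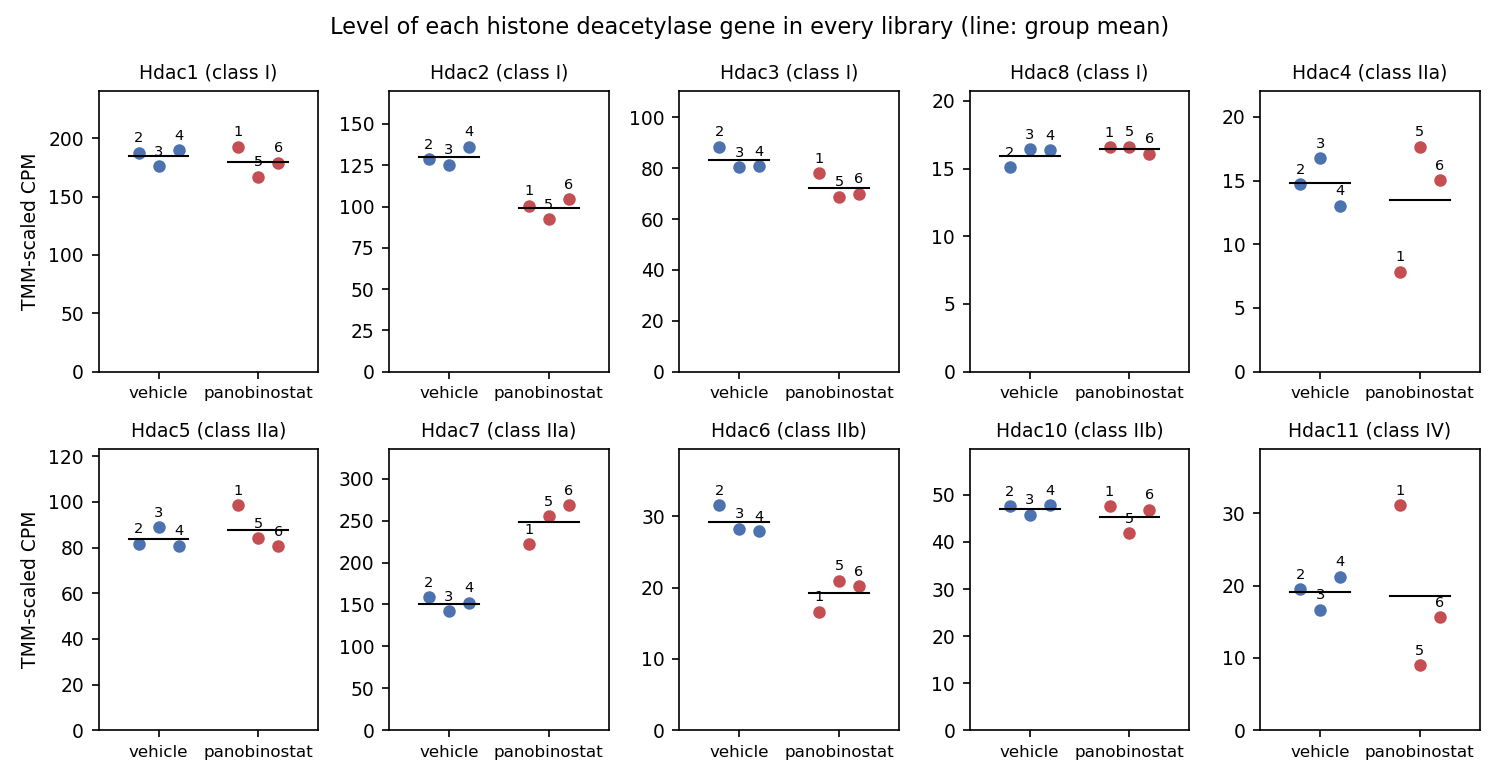
Points give the TMM-scaled CPM of each of the 10 genes in every library, numbered by library, and lines give group means, with a separate vertical axis from 0 in each panel. The panobinostat points lie above all vehicle points for Hdac7 and below them for Hdac2, Hdac3 and Hdac6, and panobinostat library 1 lies apart from libraries 5 and 6 for Hdac4 and Hdac11.

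**Figure D2:**
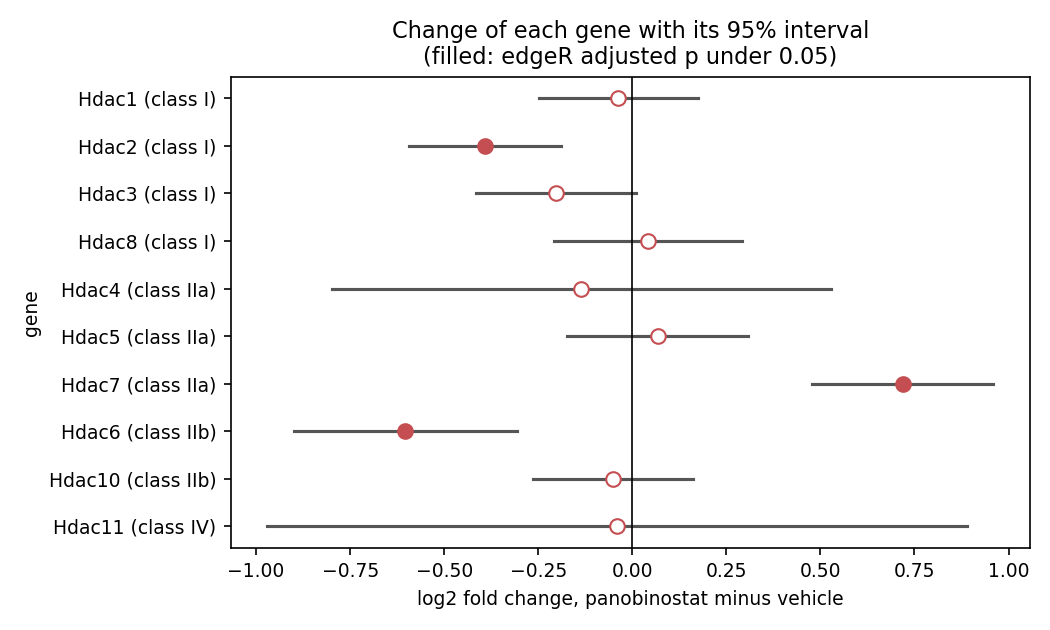
Points give the log2 fold change of panobinostat over vehicle for each gene, bars its 95% interval, and filled points an edgeR adjusted p under 0.05. Intervals of Hdac2, Hdac6 and Hdac7 lie clear of 0, and those of Hdac4 and Hdac11 are the widest of the 10.

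The 3 genes that passed are shown with the 250 bases before a start site, from RefSeq on GRCm38.p6, because they carry the calls of the family. Capitals mark, on either strand, the GC box spelled GGGCGG, the CCAAT box spelled by its name, the TATA box searched as TATAAA, a core of GATA factors searched as AGATAA and a core of RUNX factors searched as TGTGGT.
Hdac7, chr15:97831768-97832017, minus strand: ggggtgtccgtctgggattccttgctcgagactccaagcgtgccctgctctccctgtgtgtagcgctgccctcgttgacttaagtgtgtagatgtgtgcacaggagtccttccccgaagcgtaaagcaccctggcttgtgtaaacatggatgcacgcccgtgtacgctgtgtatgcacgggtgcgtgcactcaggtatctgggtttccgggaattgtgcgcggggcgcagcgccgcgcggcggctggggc
Hdac2, chr10:36974294-36974543, plus strand: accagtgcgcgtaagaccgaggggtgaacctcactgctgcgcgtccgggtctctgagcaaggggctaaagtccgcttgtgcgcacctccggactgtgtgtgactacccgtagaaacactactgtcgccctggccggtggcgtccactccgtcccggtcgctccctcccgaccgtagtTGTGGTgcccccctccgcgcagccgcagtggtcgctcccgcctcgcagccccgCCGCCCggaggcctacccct
Hdac6, chrX:7947890-7948139, minus strand: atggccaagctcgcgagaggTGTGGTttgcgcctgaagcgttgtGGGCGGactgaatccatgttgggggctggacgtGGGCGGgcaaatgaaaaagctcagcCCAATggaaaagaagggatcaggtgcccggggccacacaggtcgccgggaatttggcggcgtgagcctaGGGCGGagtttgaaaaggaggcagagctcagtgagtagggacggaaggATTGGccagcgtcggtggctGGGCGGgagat
For Hdac7 the table lists 4 starts, counts per gene do not tell which was used, and the window shown is the most CpG-rich of the 3 that hold no GENCODE exon. The window of the fourth start (97831496 to 97831745), which holds an Hdac7 exon, had 25 CpG pairs, 1 GC box and 1 GATA core, and the other 2 had 6 and 5 CpG pairs and none of the motifs. The motifs of Hdac7 thus depend on the start taken, and no contrast with Hdac2 and Hdac6 is drawn. RefSeq's records of Hdac2 and Hdac6 begin at 36974297 and 7948047, inside their windows, and that of Hdac7 begins upstream at 97844502. Nearly all of the Hdac2 window, with its marked motifs, part of the Hdac6 window and the whole Hdac7 window may therefore be transcribed. CpG pairs numbered 21 for Hdac7, 27 for Hdac2 and 17 for Hdac6, against a median of 6 over 32851 windows of the same length, of which 83.7%, 91.4% and 76.5% held fewer. Hdac6 held 4 GC boxes, 2 CCAAT boxes and 1 RUNX core, Hdac2 held 1 GC box and 1 RUNX core, and the Hdac7 window shown held none of the 5 motifs. GC boxes were found in 32.7% of all windows, CCAAT boxes in 33.85%, TATA boxes in 12.4%, RUNX cores in 14.05% and GATA cores in 9.99%, and none of these motifs overlapped another in the 3 windows. A match is a description of letters and not a binding site, and an absent match says only that those letters are not in this window.

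Among class I enzymes Hdac2 was lower with panobinostat and Hdac1, its closest relative and partner in the same complexes, was not called. Hdac2 (Entrez gene 15182; GRCm38 chromosome 10, 36974297 to 37001889) had 128.5, 125.4 and 136.2 CPM under vehicle (libraries 2, 3 and 4) against 100.5, 92.4 and 104.4 CPM under panobinostat (libraries 1, 5 and 6). Every treated value lay below every vehicle value, and within each group the values were close. The difference was a 1.31-fold decrease (log2 fold change -0.39 ± 0.09 SE, n = 3 each, edgeR adjusted p = 0.022). Without panobinostat library 5 the adjusted p was 0.057, and without vehicle library 2, 3 or 4 it was 0.072, 0.062 and 0.11, with log2 fold changes from -0.34 to -0.42.

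Hdac1 (Entrez gene 433759; chromosome 4, 129516104 to 129542646) was at 187.6, 175.9 and 189.6 CPM in vehicle and 192.7, 167.0 and 179.1 CPM with panobinostat. The groups overlapped, and panobinostat library 1 held the highest value of all 6. Its log2 fold change was -0.04 with a 95% interval from -0.25 to 0.17 (edgeR adjusted p = 0.79), and the sign turned without panobinostat library 5 (0.012). Hdac3, the enzyme of the NCoR and SMRT corepressors (Entrez gene 15183; chromosome 18, 37936971 to 37955015), was at 88.4, 80.3 and 80.7 CPM in vehicle and 78.0, 68.8 and 69.9 CPM with panobinostat. The groups did not overlap, but the difference of -0.20 on the log2 scale (interval -0.41 to 0.01) missed the threshold (edgeR adjusted p = 0.15). Scaled by library size alone, or without panobinostat library 1, Hdac3 passed, each with an adjusted p of 0.044 and log2 fold changes of -0.31 and -0.26. Hdac8, which deacetylates the cohesin subunit SMC3 (Entrez gene 70315; chromosome X, 102284638 to 102505381), was at 15.1, 16.4 and 16.3 CPM in vehicle and 16.6, 16.6 and 16.1 CPM with panobinostat. These 6 values were the closest together of the family, and the interval of the log2 difference ran from -0.21 to 0.29 (edgeR adjusted p = 0.81).

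Hdac7 was the class IIa member, and the only gene of the 10, that was called higher. Hdac7 (Entrez gene 56233; chromosome 15, 97792661 to 97844502) is best known from lymphocytes, thymocytes and endothelium, where it represses MEF2 targets. It had 158.8, 142.2 and 152.0 CPM under vehicle (libraries 2, 3 and 4) against 221.9, 255.1 and 268.4 CPM under panobinostat (libraries 1, 5 and 6). The lowest treated value exceeded the highest vehicle value, and library 1 rose least of the treated libraries. Mean levels were 151 ± 8.34 and 248 ± 24.0 CPM (SD, n = 3 each), a 1.65-fold increase (log2 fold change 0.72 ± 0.10 SE, 95% interval 0.48 to 0.96, edgeR adjusted p = 0.0068). The call held with each library left out in turn (log2 fold change 0.66 to 0.80, adjusted p 0.0019 to 0.047) and under the other 7 settings tried. Its exons share 29 bases, 0.429% of their length, with Slc48a1 on the opposite strand, whose reads could not be separated there because the strand setting is not given.

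Markers of other cells in which Hdac7 is prominent were read beside it. The 7 T cell markers summed to 2.66 to 3.65 CPM in vehicle and 1.41 to 6.42 CPM with panobinostat, and 1 of them was abundant enough to test; edgeR called 0, with 0 at an unadjusted p under 0.05 and 0 called by DESeq2 or limma-voom. None of the 7 had 0 counts in all libraries, and Cd3e was at most at 0.213 CPM. The 6 B cell markers summed to 12.9 to 14.6 CPM in vehicle and 6.73 to 20.4 CPM with panobinostat, and edgeR, DESeq2 and limma-voom called 0 of the 5 tested, with 0 at an unadjusted p under 0.05 in edgeR. The 6 endothelial and stromal markers summed to 26.7 to 29.1 CPM in vehicle and 39.1 to 47.7 CPM with panobinostat. Kdr and Pdgfrb were the 2 of 3 tested genes that were called higher, named after their values were seen. Plvap, the other tested gene and likewise named after its value was seen, made up most of the sum in every library. Plvap was not called (log2 fold change 0.13, edgeR adjusted p = 0.34), and Kdr made up the largest part of the rise in the sum. Kdr, a receptor of VEGF, was at 1.39, 1.03 and 0.720 CPM in vehicle and 17.8, 9.60 and 7.54 CPM in panobinostat libraries 1, 5 and 6 (log2 fold change 3.47, edgeR adjusted p = 0.0043). Pdgfrb, a receptor of pericytes and other stromal cells, was at 0.0646, 0.0709 and 0.137 CPM in vehicle and 0.522, 3.31 and 1.45 CPM with panobinostat (edgeR adjusted p = 0.015). Cdh5, which defines endothelium, was at most at 0.0709 CPM and had 0 counts in panobinostat libraries 1 and 6. NK cell markers (5 genes) summed to 4.14 to 10.7 CPM in vehicle and to 1.86, 15.3 and 5.36 CPM in panobinostat libraries 1, 5 and 6, and macrophage markers (7 genes) to 5.25 to 10.3 CPM and to 29.8, 13.1 and 6.62 CPM. Nkg7 alone made up most of the NK cell sum in every library. It was at 4.04, 10.4 and 6.17 CPM in vehicle and 1.73, 15.2 and 5.14 CPM with panobinostat. Among the treated libraries the T cell, B cell, endothelial and macrophage sums were highest in library 1, where Hdac7 was lowest. The NK cell sum was lowest there, as were the granulocyte sum (1.96, 6.09 and 6.53 CPM) and the plasmacytoid dendritic cell sum (1.63, 1.855 and 2.49 CPM). The part of these cells in the Hdac7 result was not tested.

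The other class IIa members were not called. Hdac5 (Entrez gene 15184; chromosome 11, 102195747 to 102230172) was at 81.7, 88.8 and 80.8 CPM in vehicle and 98.6, 84.0 and 80.7 CPM with panobinostat. Its groups overlapped, the interval of the log2 difference ran from -0.17 to 0.31 (edgeR adjusted p = 0.67), and the sign turned without panobinostat library 1 (-0.024) and with library size alone (-0.041). Hdac4 (Entrez gene 208727; chromosome 1, 91928779 to 92195702) was at 14.7, 16.7 and 13.0 CPM in vehicle and 7.86, 17.7 and 15.0 CPM with panobinostat. Panobinostat library 1 was the lowest of all and library 5 the highest of all, so the interval was wide, from -0.80 to 0.53 on the log2 scale (edgeR adjusted p = 0.76). Without library 1 the log2 fold change of Hdac4 was 0.14 in place of -0.14. An antisense gene, Gm26720, covers 22.4% of the exon bases of Hdac4 on the other strand, so its level may include reads of both. Hdac9, the remaining class IIa gene and not among the 10, had 2, 5 and 3 counts in vehicle and 5, 0 and 2 counts with panobinostat, too few to test.

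Of the class IIb pair Hdac6 was lower and Hdac10 was not called. Hdac6, the tubulin and HSP90 deacetylase that also gathers ubiquitinated proteins (Entrez gene 15185; chromosome X, 7930116 to 7948047), was at 31.5, 28.3 and 27.9 CPM in vehicle and 16.6, 21.0 and 20.1 CPM with panobinostat. All treated values lay well below the vehicle values, with library 1 the lowest. The decrease was 1.52-fold (log2 fold change -0.60 ± 0.13 SE, n = 3 each, 95% interval -0.90 to -0.31, edgeR adjusted p = 0.019), the largest decrease of the 10. Without vehicle library 2, 3 or 4 the adjusted p was 0.073, 0.055 and 0.074 at log2 fold changes of -0.55, -0.63 and -0.64, and without any 1 panobinostat library the call held. Hdac10 (Entrez gene 170787; chromosome 15, 89123303 to 89128700) was at 47.7, 45.8 and 47.8 CPM in vehicle and 47.6, 41.8 and 46.8 CPM with panobinostat. The groups overlapped, and the interval ran from -0.26 to 0.16 on the log2 scale (edgeR adjusted p = 0.71).

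Hdac11, which removes long fatty acyl groups, had the widest spread of the family. Hdac11 (Entrez gene 232232; chromosome 6, 91156670 to 91174692) was at 19.5, 16.7 and 21.2 CPM in vehicle and 31.1, 8.99 and 15.6 CPM in panobinostat libraries 1, 5 and 6. The treated libraries lay on both sides of the vehicle range, library 1 above it and libraries 5 and 6 below it. The group means were 19.1 ± 2.31 and 18.6 ± 11.4 CPM (SD, n = 3 each), and the interval of the log2 difference ran from -0.97 to 0.89 (edgeR adjusted p = 0.95). Leaving out panobinostat library 1 gave a log2 fold change of -0.63 (adjusted p = 0.08) and leaving out library 5 gave 0.29 (adjusted p = 0.52). Erythroblast markers were highest in library 1 too, at 26160 CPM against 13400 and 11960 CPM in libraries 5 and 6; their part in the spread was not tested. GENCODE places Gm44002 on the other strand over 15.4% of the exon bases of Hdac11.

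Compared per kilobase of exon (RPKM, the scaled CPM divided by the GENCODE exon length in kilobases), Hdac1 led the family in both groups. In vehicle the order was Hdac1 (53.5 ± 2.15 RPKM, SD, n = 3), Hdac2 (29.1 ± 1.24), Hdac7 (22.4 ± 1.23), Hdac3 (20.5 ± 1.13), Hdac10 (13.9 ± 0.334), Hdac5 (9.54 ± 0.4998), Hdac6 (5.02 ± 0.347), Hdac11 (4.97 ± 0.601), Hdac8 (3.30 ± 0.155) and Hdac4 (0.937 ± 0.118). Hdac6 and Hdac11 differed by less than the sum of their SDs, and so did Hdac7 and Hdac3, although Hdac7 was the higher of that pair in all 3 vehicle libraries. The other neighbours were farther apart than the sum of theirs. Hdac1 lay at the 92.3 percentile of level per kilobase among tested genes over all libraries, and Hdac4 at the 15.0 percentile. With panobinostat Hdac7 stood second at 36.8 ± 3.55 RPKM and Hdac2 next at 22.1 ± 1.38 RPKM. At the lower end Hdac6, at 3.31 ± 0.400 RPKM, was level with Hdac8 at 3.39 ± 0.0606 RPKM, which holds for this length alone, since by longest transcript they were at 3.82 and 7.24 RPKM. Hdac7 and Hdac2 held the same places when the longest transcript was used as the length, with Hdac7 at 0.729 of the Hdac2 level in vehicle and 1.58 times it with panobinostat, against 0.769 and 1.66 with all exons. Below them the order depended on the length: by longest transcript Hdac6 stood under Hdac11 and Hdac8 in vehicle (5.80, 7.21 and 7.04 RPKM), and with panobinostat Hdac5 (16.2 RPKM) passed Hdac10 (15.7 RPKM) and Hdac8 passed Hdac11 (7.01 RPKM).

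**Figure D3:**
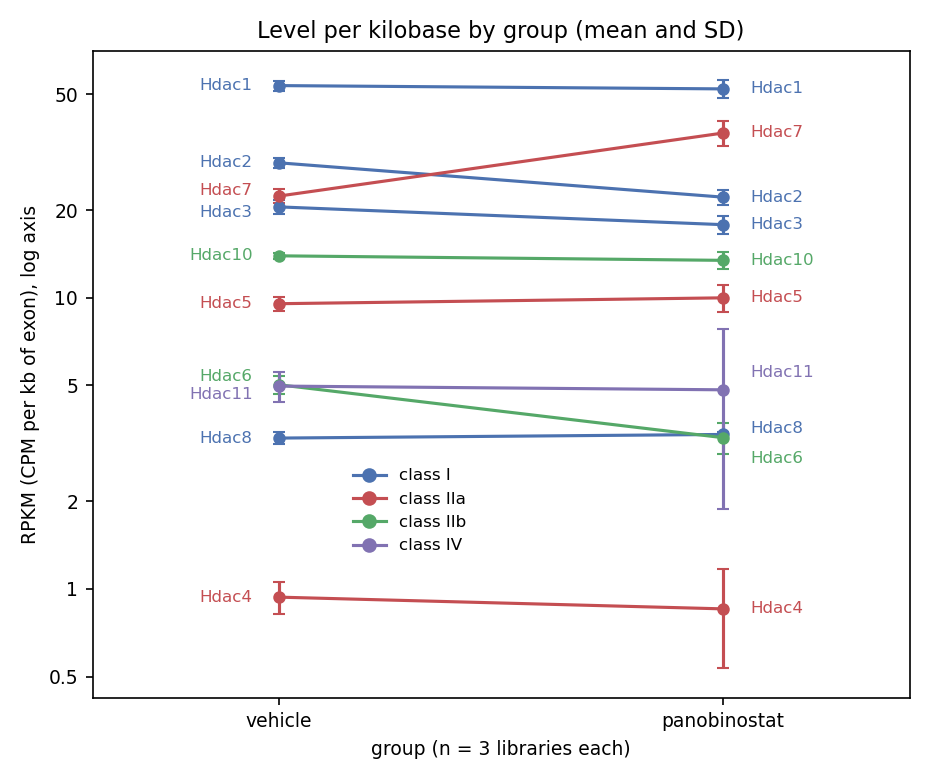
Each line joins the mean RPKM of a gene in vehicle to that in panobinostat on a log axis, with SD bars (n = 3 libraries each) and colours for the enzyme class. The lines of Hdac7 and Hdac2 cross, from 22.4 to 36.8 RPKM and from 29.1 to 22.1 RPKM, while Hdac1 stays on top.

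The summed level of the family was similar in the groups, at 157.2 to 166.5 RPKM in vehicle and 156.3 to 170.6 RPKM with panobinostat, and its make-up differed. Class I genes made up 65.2% ± 0.356 of the summed RPKM in vehicle and 58.0% ± 1.10 with panobinostat (SD, n = 3 each). Class IIa genes held 20.1% ± 0.447 and 29.0% ± 2.55, of which Hdac7 alone held 13.7% ± 0.379 and 22.4% ± 2.73. Class IIb genes held 11.6% ± 0.168 in vehicle and 10.2% ± 0.222 with panobinostat. The groups did not overlap in these class I, IIa and IIb shares, whereas the Hdac11 share overlapped, and the shares depend on one another since they sum to the whole.

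Ratios of read counts within a library do not depend on the scaling between libraries. The ratio of Hdac7 to Hdac2 counts was 1.24, 1.13 and 1.12 under vehicle (libraries 2, 3 and 4) against 2.21, 2.76 and 2.57 under panobinostat (libraries 1, 5 and 6), a 2.16-fold higher mean. Hdac2 to Hdac1, the pair that shares complexes, stood at 0.685, 0.713 and 0.719 in vehicle and 0.522, 0.553 and 0.583 with panobinostat. Within class IIb the ratio of Hdac6 to Hdac10 was 0.662, 0.617 and 0.583 in vehicle and 0.349, 0.501 and 0.430 with panobinostat. None of these 3 ratios overlapped between groups, and an exact permutation test of 3 against 3 libraries cannot give a 2-sided p under 0.1. The genes were paired after their values were seen, so the ratios are a description.

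**Figure D4:**
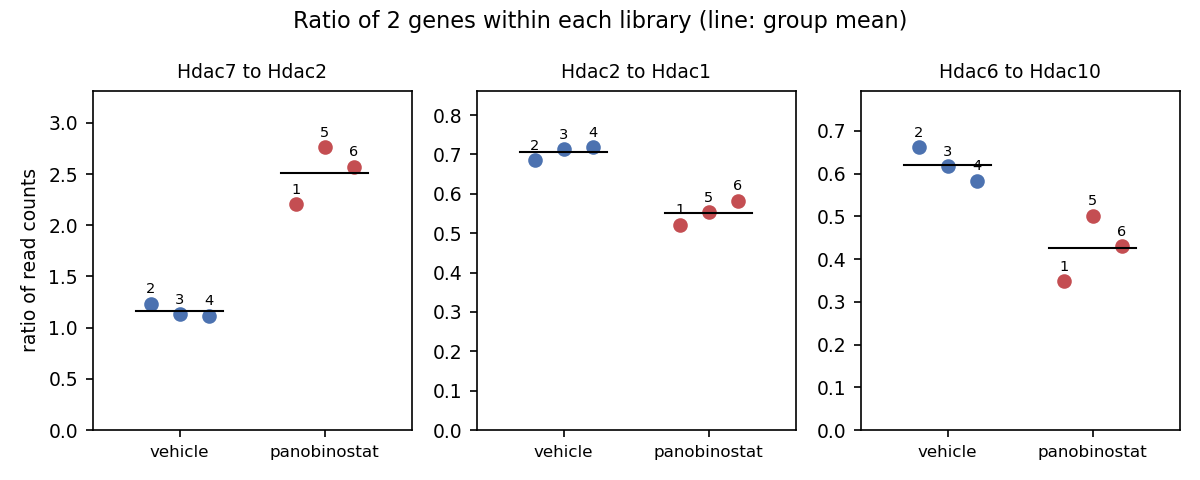
Points give the ratio of the read counts of 2 genes in each library, numbered by library, with lines at group means and vertical axes from 0. Hdac7 to Hdac2 is between 1.12 and 1.24 in vehicle and between 2.21 and 2.76 with panobinostat, and the ratios of Hdac2 to Hdac1 and of Hdac6 to Hdac10 are lower in every treated library.

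Genes that work with these enzymes were read from 11 lists with tested genes, which held 106 tested genes together. Of these 27 were called (25.5%, beside 21.0% of all tested genes), 12 higher and 15 lower, with a median log2 fold change of 0.04. Scaled by library size alone the split was 5 higher and 21 lower. Calls depended on single libraries in these lists and over all genes. Without vehicle library 4, 0 of the 27 remained, and 3.32% of all tested genes were called. Without panobinostat library 1, 41 partner genes were called, beside 31.1% of all tested genes. The rule for naming took 19 of the called partner genes. With vehicle library 2 left out 2 of these kept their call (Gse1 and Zmym3), and with vehicle library 3 left out 9 did. Leaving out panobinostat library 5, 6 or 1 kept 12, 15 and 19 of them. Their adjusted p without vehicle library 4 lay between 0.052 and 0.16.

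The class I corepressor complexes held both higher and lower members. Of 12 NuRD genes (the complex that joins Hdac1 and Hdac2 to a chromatin remodeller) 2 rose and 2 fell (0 and 2 with library size alone). The called share was 33.3%, beside 21.0% of all tested genes, and the median was 0.04. The histone-binding subunit Rbbp7 fell from 277 ± 15.4 to 187 ± 24.7 CPM (SD, n = 3 each; edgeR adjusted p = 0.018). Mbd2, which binds methylated DNA, rose from 150 ± 6.51 to 200 ± 20.6 CPM and the scaffold gene Mta3 from 59.7 ± 3.91 to 86.4 ± 16.0 CPM (edgeR adjusted p = 0.030 and 0.037). Mbd3, the alternative to Mbd2 in the complex and named after its value was seen, fell 1.27-fold (edgeR adjusted p = 0.039). Of 15 Sin3 complex genes 1 was called, Sinhcaf, which fell from 91.7 ± 6.02 to 60.3 ± 10.5 CPM (edgeR adjusted p = 0.023), and the list's median was -0.05. The called share was 6.67%, beside 21.0% of all tested genes. DESeq2 called 5 genes of that list, and 7 had an unadjusted p under 0.05 in edgeR.

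In the CoREST complex, which couples Hdac1 and Hdac2 to the histone demethylase Kdm1a, 3 of 10 genes rose and 0 fell (1 and 1 with library size alone). The called share was 30.0%, beside 21.0% of all tested genes. Without vehicle library 2, 3 or 4 the list held 2, 1 and 0 calls, beside 4.65%, 9.54% and 3.32% of all tested genes. The median of the list was 0.27, and 9 of its 10 log2 fold changes were positive, beside 6605 of 12916 over all tested genes. Gse1 rose from 125 ± 7.75 to 192 ± 8.26 CPM (SD, n = 3 each), the zinc finger gene Zmym3 from 48.0 ± 9.41 to 73.7 ± 10.2 CPM and Phf21a, which binds unmethylated histone H3, from 52.4 ± 1.49 to 68.1 ± 7.62 CPM. Their edgeR adjusted p values were 0.0068, 0.037 and 0.041. Of the 5 NCoR and SMRT complex genes edgeR called 0, with 1 at an unadjusted p under 0.05 and 0 called by DESeq2 or limma-voom, and the list's median was 0.13. Ncor1, the scaffold that activates Hdac3, was at 378 ± 9.24 and 434 ± 50.2 CPM (edgeR adjusted p = 0.22). Of 5 tested MiDAC and MIER scaffold genes edgeR called 0 and limma-voom 0, DESeq2 called 1, and 1 had an unadjusted p under 0.05 in edgeR. Mier1 was at 161 ± 11.8 and 197 ± 7.34 CPM (edgeR adjusted p = 0.060).

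Among partners of class IIa enzymes the called share was 0 for MEF2 factors, 14.3% for kinases and 28.6% for 14-3-3 proteins, beside 21.0% of all tested genes. Of the 3 tested MEF2 factors edgeR, DESeq2 and limma-voom called 0, with 0 at an unadjusted p under 0.05 in edgeR. Mef2d, the most abundant of them in CPM, was at 43.5 ± 2.27 CPM in vehicle and 44.9 ± 4.28 CPM with panobinostat (SD, n = 3 each; edgeR adjusted p = 0.79). Among 14 tested genes of kinase families that phosphorylate class IIa enzymes 2 rose and 0 fell (2 and 1 with library size alone), with a median of 0.03. Prkd2, a protein kinase D, rose from 46.7 ± 6.11 to 76.9 ± 6.71 CPM and Camk1d, a calmodulin-dependent kinase, from 10.2 ± 1.96 to 24.9 ± 10.3 CPM (edgeR adjusted p = 0.011 and 0.031). Of the 7 genes of 14-3-3 proteins, which hold phosphorylated class IIa enzymes in the cytoplasm, 2 fell, Ywhae 1.35-fold and Ywhaq 1.29-fold (edgeR adjusted p = 0.016 and 0.029).

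Substrates and partners of Hdac6 held 7 calls in 15 genes (46.7%, beside 21.0% of all tested genes). Of these 3 were higher and 4 lower (1 and 4 with library size alone), and the list's median was 0.04. The list held 0 calls without vehicle library 2 or 4 and 4 without vehicle library 3. Of all tested genes 4.65%, 3.32% and 9.54% were called without vehicle library 2, 4 and 3. The alpha-tubulin genes Tuba1a and Tuba1b fell from 228 ± 16.3 to 155 ± 11.1 CPM and from 447 ± 36.5 to 292 ± 31.9 CPM (SD, n = 3 each; edgeR adjusted p = 0.012 and 0.014). Tuba1c, a close copy with which they may share reads, and the peroxiredoxin gene Prdx1 were the other 2 that fell, both named after their values were seen. Another alpha-tubulin gene of the list, Tuba4a, lay higher in every treated library, at 234.7 ± 14.1 CPM in vehicle and 273.5 ± 11.3 CPM with panobinostat. Tuba4a was likewise named after its value was seen and was not called (edgeR adjusted p = 0.12). Sqstm1, the autophagy receptor p62, rose from 139 ± 25.2 to 245 ± 30.1 CPM (edgeR adjusted p = 0.014). The remaining calls were the cortactin gene Cttn and, also named with its value known, Atat1, the acetyltransferase that opposes Hdac6 on tubulin, which went from 10.5 ± 0.657 to 14.2 ± 0.589 CPM (edgeR adjusted p = 0.045).

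Cohesin and its regulators, which include the Hdac8 substrate SMC3, held 6 calls in 13 genes (46.2%, beside 21.0% of all tested genes). Of these 1 was higher and 5 lower (0 and 7 with library size alone), and the list's median was -0.39. The list held 0 calls without vehicle library 2 or 4 and 2 without vehicle library 3, where 4.65%, 3.32% and 9.54% of all tested genes were called. Esco2, an acetyltransferase of SMC3 active in S phase, fell from 169 ± 18.1 to 77.7 ± 23.8 CPM (SD, n = 3 each; edgeR adjusted p = 0.014). Cdca5, the cohesion protein sororin, fell 1.65-fold and the cohesin subunit Rad21 1.396-fold (edgeR adjusted p = 0.015 and 0.017). Smc1a and Pds5b were the other 2 that fell and Mau2, a cohesin loader, the 1 that rose, named after their values were seen. Smc3 itself, named after its value was seen, was at 268 and 205 CPM and missed the threshold (edgeR adjusted p = 0.068).

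**Figure D5:**
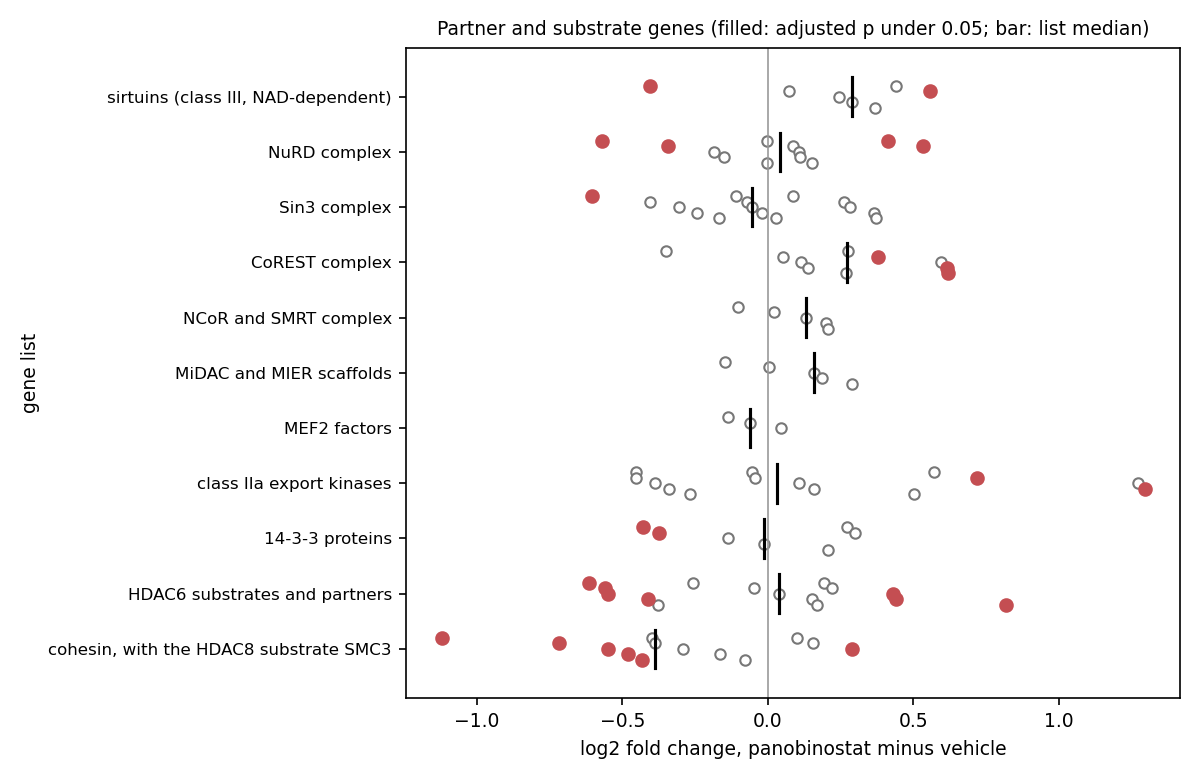
Each point is the log2 fold change of a tested gene in 1 of 11 lists of partners, substrates or other deacetylases, filled where the edgeR adjusted p was under 0.05, and bars give list medians. Filled points lie on both sides of 0 in the NuRD and Hdac6 lists, and the list medians run from -0.39 for cohesin to 0.29 for the sirtuins.

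The sirtuins, the NAD-dependent deacetylases that panobinostat does not target, held 2 calls in 7 genes, 1 in each direction. This share of 28.6% stands beside 21.0% of all tested genes. Sirt2, which like Hdac6 deacetylates tubulin, rose from 43.4 ± 1.95 to 63.8 ± 5.86 CPM (SD, n = 3 each; 1.47-fold, edgeR adjusted p = 0.012). Sirt1, a nuclear deacetylase of p53, fell from 47.1 ± 0.225 to 35.6 ± 1.31 CPM (1.32-fold, edgeR adjusted p = 0.018). The median of the list was 0.29, and 6 of the 7 log2 fold changes were positive, beside 6605 of 12916 over all tested genes.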

How the data were processed

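RNA of 6 libraries was analysed, 3 per group. The authors deposited raw whole-number counts of reads for each Entrez gene. Per the submitters' processing notes, the build was mm10 and the tools included HISAT2 2.1.0, featureCounts (Subread 2.0.0), cutadapt 2.1, limma, FastQC 0.11.6 and bcl2fastq 2.17.1.14, without the role of each. Annotation, strandedness and multi-mapping rules were not stated there. Columns were tied to groups by the words treated and control, and carry no stated replicate number.

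Names and positions came from RefSeq for GRCm38, which is mm10, and exon lengths from GENCODE M21. The edgeR 4.0.16 quasi-likelihood test (R 4.3.3; filterByExpr, TMM factors, treatment as the only term) was fitted to 12916 genes with Benjamini-Hochberg adjustment over all of them, and was tested on simulated data. Standard errors were derived from the fold change and its F statistic, and 95% intervals use the test's degrees of freedom. Alternatives were DESeq2 1.42.0, limma-voom (3.58.1), upper-quartile or library-size scaling, hemoglobin genes removed, 2 other filters and leaving out each library. The longest transcript as length was added after the data were seen. Members and lists were chosen with earlier results of these data known. Named partner genes are the up to 3 called genes with the smallest p per list, or else the most abundant tested gene.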

Additional observations from a re-analysis of the deposited data

How the results depend on the processing

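No paired analysis was possible because the count columns carry no stated replicate number, and of the unexplained numbers in their names the groups share only 1, the last number 3. Across the 13 alternatives the count of 3 called members was 1 without vehicle library 2, 3 or 4 (Hdac7 in each) and ranged from 1 to 4 with a library left out, and the other 7 settings gave 3 or 4. Called partner genes (27) ranged from 0 without vehicle library 4 to 41 without panobinostat library 1, and all called genes (2715) from 438 without vehicle library 4 to 4056 without panobinostat library 1; leaving out a vehicle library leaves 2 samples in that group, and the cause beyond fewer samples was not tested. Among the partner lists, Sin3 held 1 call and 5 with DESeq2 or 3 with library size alone, NuRD 4 and 2 with library size alone, the class IIa kinases 2 and 1 with limma-voom, and the MiDAC and MIER list 0 and 1 with DESeq2. Log2 fold changes that turned sign were all of genes that missed the threshold: without panobinostat library 5 Hdac1 (0.012), Hdac10 (0.0036) and Hdac11 (0.29), without library 6 Hdac11 (0.076) and Mef2d (-0.0043), without library 1 Hdac4 (0.14) and Hdac5 (-0.024), without vehicle library 4 Hdac11 (0.038), and with library size alone Hdac5 (-0.041), Hdac8 (-0.064) and Mef2d (-0.060). With single libraries left out the ranges were -0.090 to 0.012 for Hdac1, -0.085 to 0.0036 for Hdac10, -0.63 to 0.29 for Hdac11, -0.37 to 0.14 for Hdac4, -0.024 to 0.13 for Hdac5 and -0.0043 to 0.12 for Mef2d. Hdac2, Hdac6 and Hdac7 kept their direction in all 13. A library of 25794869 counts puts 1 count at 0.0388 CPM before TMM scaling, which limits Hdac9 but no member.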
